A study of Mus with 35 samples.

Results

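The R206W mutation effect is described here as the difference in brain RNA between R206W and wild-type (WT) male mice at 3 weeks of age, all given a control antisense oligonucleotide (ASO). It rests on 6 of the 35 libraries of the series, 3 titled R206W and 3 titled WT with the control ASO at 3 weeks. The 3 WT libraries are those whose library numbers run in the same series as the R206W libraries. Genes entered when their mean was at least 1 TPM (a level corrected for transcript length and scaled to the same total in every library), which kept 16489 of the 55573 rows of the deposited table. The mean was taken over the 12 libraries of the R206W cohort, and a mean over the 6 libraries alone kept 16469. At that limit Spidr lay just inside with a mean of 1.0008 TPM and Frrs1 just outside with 0.9992 TPM.

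The series asked, in young mice, how lowering Hnrnph2 with an ASO acts on the brain transcriptome in carriers of either of 2 substitutions, R206W or P209L. All mice were C57BL/6J males, and the mutants carried the substitution on their single X chromosome, beside WT littermates. Each received 30 µg of ASO in 1 injection into the brain ventricles on postnatal day 2 to 4, so that mutants and controls alike had been injected. Besides the control ASO groups, values are given for R206W and WT mice of the same cohort with the Hnrnph2 ASO, and for P209L and WT mice with the control ASO in separate cohorts of 3 and 8 weeks, with 3 libraries in each group.

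Hnrnph2 is an X-linked gene that encodes a member of the hnRNP H/F group of proteins, which bind runs of guanines in RNA and take part in splicing and other steps of RNA processing. R206W and P209L lie in the stretch of the protein that transportins, the import receptors of many RNA-binding proteins, read as a nuclear localization signal. Variants in this stretch cause a neurodevelopmental disorder in people, and Hnrnph1 is the closest relative of Hnrnph2.

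Between 16276 and 16502 genes reached 1 TPM in each of the 6 libraries, and the 50 most abundant genes held 27.3% to 29.8% of the TPM. Read depth is unknown, because TPM keeps no read total. Correlations of log2(TPM + 1) across genes ran from 0.984 to 0.986 within WT, from 0.984 to 0.985 within R206W and from 0.979 to 0.988 between the genotypes. The labels name both whole brain and dissected cortex. Markers of cerebellum and choroid plexus were present in every library, with Pcp2, a Purkinje cell gene, at 294.9 to 521 TPM and Ttr, a choroid plexus gene, at 466 to 892 TPM. The titles hold names that may be those of animals: the 3 WT libraries and R206W replicates 1 and 2 share a name stem, and R206W replicate 3 has another. The labels do not say whether a stem marks a litter or whether each library is a separate animal, so p-values measure only the spread between these libraries.

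The mutated gene itself did not differ beyond the spread between libraries. Hnrnph2 (mm10, chrX:134601179-134607060) stood at 116.8, 97.8 and 94.5 TPM in WT and at 110.5, 95 and 100.5 TPM in R206W. The groups overlapped, and R206W was lower by 1.02 TPM on average (two-sided exact permutation p = 0.9, where 3 against 3 cannot go below 0.1). Without WT replicate 1 the difference was 5.87 TPM in the other direction, and without R206W replicate 2 it was 2.51 TPM. None of the 5 members of the hnRNP H/F family was called, and their median log2 fold change was -0.078. Hnrnph1 averaged 341.6 TPM in WT and 323.3 in R206W (exact p = 0.4), Hnrnpf 96.1 and 90.1 (exact p = 0.2), Hnrnph3 52.2 and 48.9 (exact p = 0.5), and Grsf1, a mitochondrial relative, 76.2 and 78.3 (exact p = 0.5). Within 1 Mb of Hnrnph2, 21 genes were tested, none was called, and 1 had an unadjusted p under 0.05 (Armcx6, an Armadillo-repeat gene, log2 fold change 0.30, unadjusted p = 0.0069).

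R206W brains had a short list of changed genes in the fit used here, almost all of them higher. Of 16489 genes, 22 passed an adjusted p under 0.05 in limma (0.133%), of which 21 rose (0.127%) and 1 fell (0.00606%). The largest rises were in Ddn, Ppp1r9b and Adra1b, and in the unnamed gene model Gm31166. Genes called in this sense are referred to as rising or falling below, and the others are given by their values. At an unadjusted p under 0.05, 768 genes were higher (4.66%) and 701 lower (4.25%). The median log2 fold change over all genes was -0.0047, with 48.3% of genes above 0 and 51.5% below. The excess of rises among the calls depended on the fit. With replicate number as a block, limma called 210 genes, 102 higher and 108 lower.

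**Figure D1:**
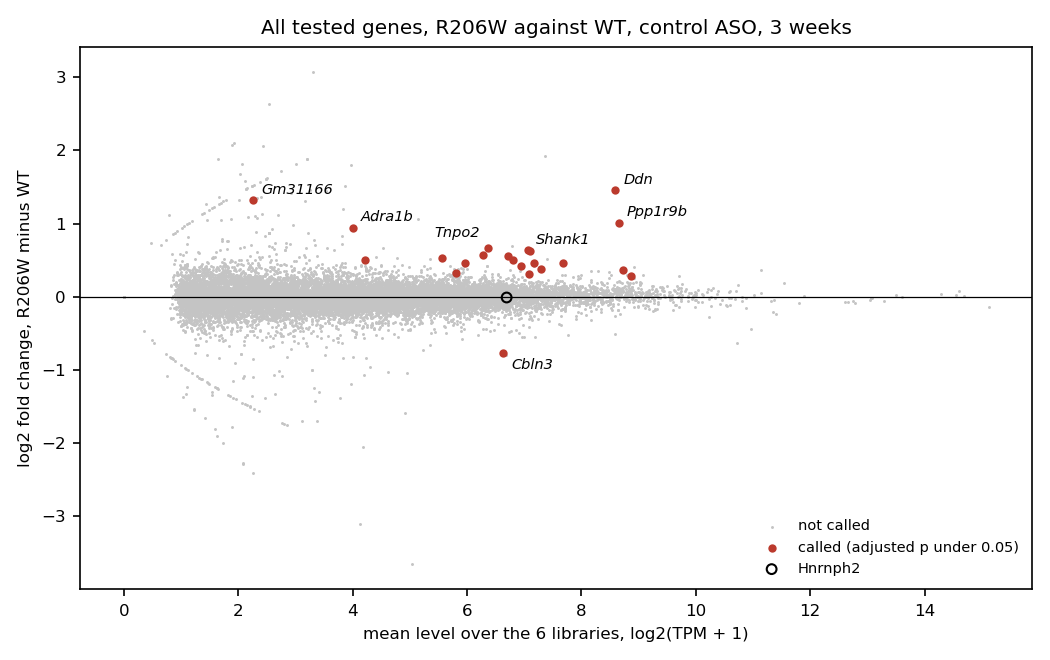
Each point is 1 of 16489 genes, placed by its mean level over the 6 libraries in log2(TPM + 1) (x axis) and its log2 fold change, R206W minus WT with the control ASO (y axis). The 22 called genes are red, of which 21 lie above 0 and Cbln3 below, and the open circle near 0 is Hnrnph2.

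The 21 rising genes were mostly well expressed. Their median mean level was 122.9 TPM, against 16.5 TPM over all genes tested, and 17 of the 21 exceeded 50 TPM, a level that 21.9% of all tested genes exceeded. They lay on 13 chromosomes, and their log2 fold changes ran from 0.29 to 1.46 with a median of 0.50. In all 22 called genes the R206W and WT libraries did not overlap, which 6.33% of all genes showed upward and 5.39% downward. The genes were called on these same libraries, which largely sets this outcome, so it is no separate support. R206W replicate 3, the library with the other name stem, was the highest of the 3 R206W libraries in 18 of the 21 rising genes, and in 28.6% of all genes. Without it limma called 25 genes, 17 of the 21 among them, and the part of this library in the size of the rises was not tested.

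**Figure D2:**
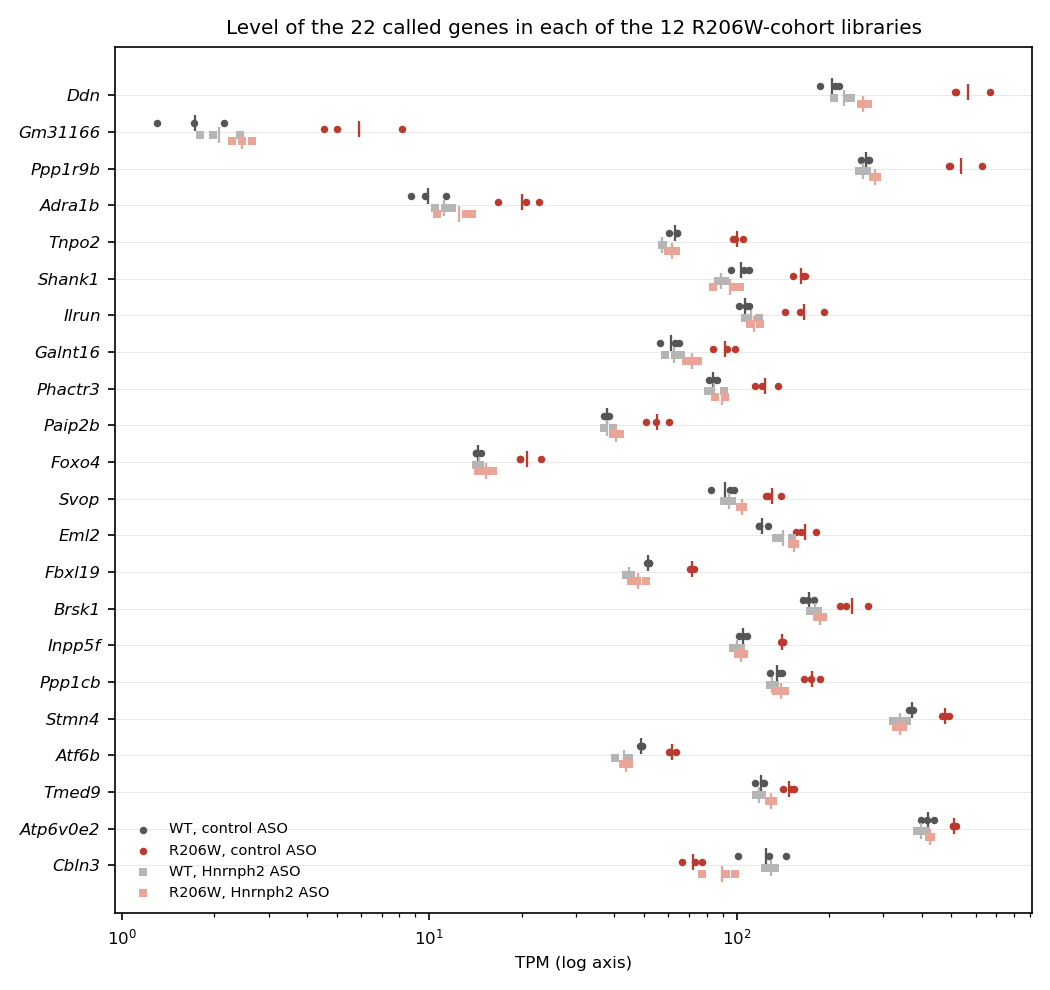
TPM on a log axis (x axis) of the 22 called genes (y axis), with 1 point per library and a vertical tick at each group's mean; circles are control ASO libraries and squares Hnrnph2 ASO libraries. The red circles of R206W lie to the right of the dark circles of WT in 21 genes and to the left in Cbln3.

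Ddn, Ppp1r9b and Shank1, genes of the postsynaptic density and dendritic spine, rose. Ddn encodes dendrin, a protein of dendrites and the postsynaptic density. It lies at chr15:98803782-98807925 and measured 215.4, 187.2 and 209.8 TPM in WT and 517.7, 512 and 669.4 TPM in R206W. Every R206W library lay far above the highest WT value, replicate 3 furthest, and the mean was 2.78-fold higher (log2 fold change 1.46, SE 0.097, adjusted p = 0.000103). Ppp1r9b (chr11:94991212-95006898) encodes spinophilin, a spine scaffold that binds actin and protein phosphatase 1. It measured 267, 270.5 and 254.9 TPM in WT and 495.7, 490.6 and 627.1 TPM in R206W, with no overlap and a 2.04-fold higher mean (1.01, SE 0.080, adjusted p = 0.000235). Shank1 (chr7:44308916-44360094), a master scaffold of the postsynaptic density, measured 109.6, 105.7 and 95.8 TPM in WT and 164.3, 153.2 and 167 TPM in R206W, again without overlap (0.64, SE 0.076, adjusted p = 0.00758).

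Most of the postsynaptic list was not called. Ddn, Ppp1r9b and Shank1 were the 3 called among 34 measured scaffold genes (0.133% of all genes were called), in a list drawn up with earlier results known. Of the 34, 17 lay above 0 and 17 below (48.3% and 51.5% of all genes), with a median log2 fold change of -0.001. Among those not called, Dlg4 (PSD-95) averaged 412.7 TPM in WT and 472.5 in R206W, and Sipa1l1 46.5 and 60.4. Shank3, a relative of Shank1, had a log2 fold change of 0.00098, and Shank2 one of -0.15. Homer3, a scaffold abundant in Purkinje cells, averaged 84 TPM in WT and 68.8 in R206W. All of these failed the adjusted threshold.

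A catalytic subunit of protein phosphatase 1 and another of its binding partners rose beside spinophilin. Phactr3 (chr2:178118975-178338492), which binds actin and the phosphatase, measured 86.4, 81.2 and 84.3 TPM in WT and 120.7, 115 and 136.2 TPM in R206W (0.55, SE 0.070, adjusted p = 0.0107). Ppp1cb (chr5:32458848-32493713), the beta catalytic subunit, measured 141, 137.2 and 128.6 TPM in WT and 174.6, 166.3 and 187 TPM in R206W (0.37, SE 0.056, adjusted p = 0.0281). Neither gene overlapped between the genotypes. They and Ppp1r9b were the 3 called of 20 members of this list (0.133% of all genes were called), whose median was -0.010. The alpha and gamma catalytic subunits stayed nearer to 0, with log2 fold changes of 0.040 for Ppp1ca and -0.11 for Ppp1cc, and Ppp1r9a, which encodes the relative neurabin, had 0.12.

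Among nuclear import receptors the change was in 1 gene. Tnpo2 (chr8:85036873-85057585) encodes transportin 2, one of the receptors that carry hnRNPs into the nucleus. It measured 64.2, 60.5 and 63.9 TPM in WT and 104.7, 97.7 and 99.2 TPM in R206W. The lowest R206W library lay well above the highest WT library, and the mean was 1.6-fold higher (0.67, SE 0.049, adjusted p = 0.000137). Tnpo2 was the 1 called of 17 transportin and importin genes (0.133% of all genes were called), whose median was 0.011. Tnpo1, which encodes the closely related transportin 1, had a log2 fold change of 0.044 (SE 0.12), and Tnpo3 0.064 (SE 0.056). None of 15 exportin and Ran cycle genes was called, with a median of 0.018.

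Adra1b, Brsk1, Foxo4 and Fbxl19, genes of signalling and transcription, also rose. Adra1b (chr11:43774605-43901250), the alpha-1B adrenergic receptor, measured 9.72, 8.74 and 11.3 TPM in WT and 20.7, 16.8 and 22.8 TPM in R206W, a 2.02-fold higher mean (0.94, SE 0.13, adjusted p = 0.0155). It was the 1 called of 7 adrenergic receptor rows (0.133% of all genes were called). Of these rows 6 lay above 0 (48.3% of all genes), with a median of 0.208, and of 0.124 without WT replicate 2. Adra2a averaged 15.9 TPM in WT and 18.6 in R206W, and Adrb1 10.1 and 12.8, and neither passed. Brsk1 (chr7:4690636-4715999), a kinase of neuronal polarity and synaptic vesicle release, went from 171.6 ± 7.32 to 237.1 ± 27.2 TPM (SD, n = 3; adjusted p = 0.0378). It was the 1 called of 12 polarity kinase genes (0.133% of all genes), and its relative Brsk2 had a log2 fold change of 0.070. Foxo4 (chrX:101254261-101260873), a forkhead transcription factor downstream of insulin signalling, went from 14.4 ± 0.324 to 20.9 ± 1.98 TPM (adjusted p = 0.0188), while Foxo3 averaged 38.8 TPM in WT and 32.7 in R206W and did not pass. Fbxl19 (chr7:127743887-127769483), which binds CpG islands through a CXXC domain, measured 51.8, 52 and 51.1 TPM in WT and 70.7, 72.6 and 70.9 TPM in R206W (0.46, SE 0.050, adjusted p = 0.00429). The 6 values fell into 2 tight sets. Fbxl19 was the 1 called of 12 CXXC-domain genes (0.133% of all genes), whose median was -0.076.

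Inpp5f, Svop, Tmed9 and Atp6v0e2, genes of phosphoinositide turnover and membrane traffic, rose as well. Inpp5f (chr7:128611181-128696436), an inositol phosphatase of endosomes, measured 107.9, 101.5 and 105.3 TPM in WT and 141.5, 139.3 and 141.7 TPM in R206W (0.42, SE 0.046, adjusted p = 0.00429). Its R206W values lay close together and apart from all WT values. Svop (chr5:114026913-114091380), a synaptic vesicle membrane protein, went from 92 ± 8.15 to 130.2 ± 8.26 TPM (adjusted p = 0.0155). Tmed9 (chr13:55593135-55597697), a cargo receptor between the endoplasmic reticulum and the Golgi, went from 119.8 ± 4.71 to 148.5 ± 5.97 TPM (adjusted p = 0.0379). Atp6v0e2 (chr6:48537569-48541801), a subunit of the proton pump that acidifies vesicles and lysosomes, had the smallest of the 21 rises, from 418.8 ± 20.3 to 510.2 ± 6.3 TPM (adjusted p = 0.0483).

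Both called microtubule genes were abundant. Stmn4 (chr14:66344210-66361680), a neuronal stathmin that regulates microtubules, went from 371.4 ± 5.62 to 477.2 ± 12.1 TPM (adjusted p = 0.0155). Eml2 (chr7:19176421-19206482), a microtubule-associated protein, went from 120.9 ± 4.55 to 166.9 ± 13.2 TPM (adjusted p = 0.0172). Paip2b (chr6:83806058-83831741), which holds back translation by binding the poly(A)-binding protein, went from 37.8 ± 0.666 to 55.2 ± 4.7 TPM (adjusted p = 0.00758). Further rises concerned Ilrun, a regulator of inflammation and lipid metabolism, from 106.5 ± 4.03 to 165.6 ± 25.1 TPM (chr17:27751232-27820542, adjusted p = 0.0221). Galnt16, an enzyme that starts mucin-type O-glycosylation, went from 61.4 ± 4.62 to 91.9 ± 7.79 TPM (chr12:80518471-80603898, adjusted p = 0.0155). Atf6b, a membrane-bound transcription factor of the unfolded protein response, went from 49.1 ± 0.335 to 61.4 ± 1.65 TPM (chr17:34647146-34655074, adjusted p = 0.0493). Gm31166, a gene model of low level, went from 1.72, 2.15 and 1.3 TPM to 4.53, 5.02 and 8.17 TPM (chr19:5510782-5550374, adjusted p = 0.0155).

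No tested neighbour of a called gene was called. Of 72 pairs of a called gene and a tested neighbour within 50 kb, none of the neighbours was called, and 7 had an unadjusted p under 0.05. Over all genes 0.133% were called, and 4.66% were higher and 4.25% lower at that unadjusted p. B130046B21Rik overlaps Ddn and was higher in the same libraries without passing, with 4.43, 1.74 and 3.48 TPM in WT and 12.5, 7.56 and 9.92 TPM in R206W (1.42, adjusted p = 0.0521). Whether the counting used strand is not given in the sources used here, so reads of Ddn and of this overlapping gene cannot be told apart.

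How far the list of 22 stands depends on which libraries enter. Leaving out 1 library in turn gave 10 to 25 called genes: 12 without WT replicate 1, 10 without WT replicate 2, 21 without WT replicate 3, 13 without R206W replicate 1, 21 without R206W replicate 2 and 25 without R206W replicate 3. With only the 6 libraries in the fit, Ddn and Tnpo2 were called. Ddn, Tnpo2, Ppp1r9b, Shank1, Fbxl19, Inpp5f and Paip2b were the 7 that stayed called with each library left out. All 21 rising genes stayed above 0 in each of those fits, which was fixed in advance because their groups do not overlap. With the name stem of the libraries as a block, limma called 19 genes, among them 14 of the 21 rises. R206W replicate 3 was the only library with its stem. The block therefore gave the effect sizes of the fit without that library, and it is not a separate check. The genotype difference under it was that between libraries of 1 stem. The labels do not say whether a stem marks a litter, so an effect of litter was not tested. The calls of Adra1b, Svop, Eml2, Ppp1cb, Atf6b, Tmed9 and Atp6v0e2 and that of Cbln3 were lost under this block (adjusted p from 0.0579 for Eml2 to 0.196 for Cbln3).

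The 1 gene that fell marks cerebellar granule cells. Cbln3 (chr14:55878920-55884256), a cerebellin of granule cells, measured 127.5, 145.1 and 101.1 TPM in WT and 66.6, 77 and 73.4 TPM in R206W, 0.58 times the WT mean (log2 fold change -0.76, SE 0.12, adjusted p = 0.0395). Its adjusted p passed the threshold in 1 of the 6 fits that left out a library, that without WT replicate 3 (the range over the 6 was 0.0112 to 0.179). Other granule and unipolar brush cell genes were lower without passing. Gabra6, the GABA-A receptor subunit of granule cells, measured 132.3, 155.3 and 100.8 TPM in WT and 74.6, 78.7 and 67 TPM in R206W, without overlap (adjusted p = 0.117). Etv1 averaged 71 and 47 TPM, Fat2 49.5 and 30.5, Cbln1 225 and 172.1, and Eomes, a marker of unipolar brush cells, 14.8 and 9.69.

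Cerebellar genes were mostly lower. Of 16 granule and unipolar brush cell genes, 15 lay below 0 (51.5% of all genes) and 11 were lower at an unadjusted p under 0.05 (4.25% of all genes). The median of the 16 was -0.38, against -0.0047 over all genes. Their summed level was 1965, 1995 and 1709 TPM in WT and 1584, 1645 and 1489 TPM in R206W. The sums did not overlap, although WT replicate 3 lay nearest to R206W. Of 16 Purkinje cell genes, 12 lay below 0 and 4 were lower at an unadjusted p under 0.05 (median -0.223), with Car8 at 171.9 TPM in WT and 116.6 in R206W. The Purkinje sums overlapped, with 3129, 3605 and 2824 TPM in WT and 2633, 2967 and 2813 TPM in R206W. The Purkinje median was -0.105 without WT replicate 2 and -0.139 without R206W replicate 1. In bulk RNA, fewer cells of a type and less RNA per cell cannot be told apart. With the mean level of the granule and unipolar brush cell genes of each library as a covariate, Ddn and Tnpo2 were the 2 genes called. All 21 rises stayed above 0. This cerebellar covariate holds Cbln3 itself and was lower in R206W, so it takes up part of the genotype difference. Loss of the Cbln3 call was therefore built in, and what the other lost calls reflect was not tested.

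**Figure D3:**
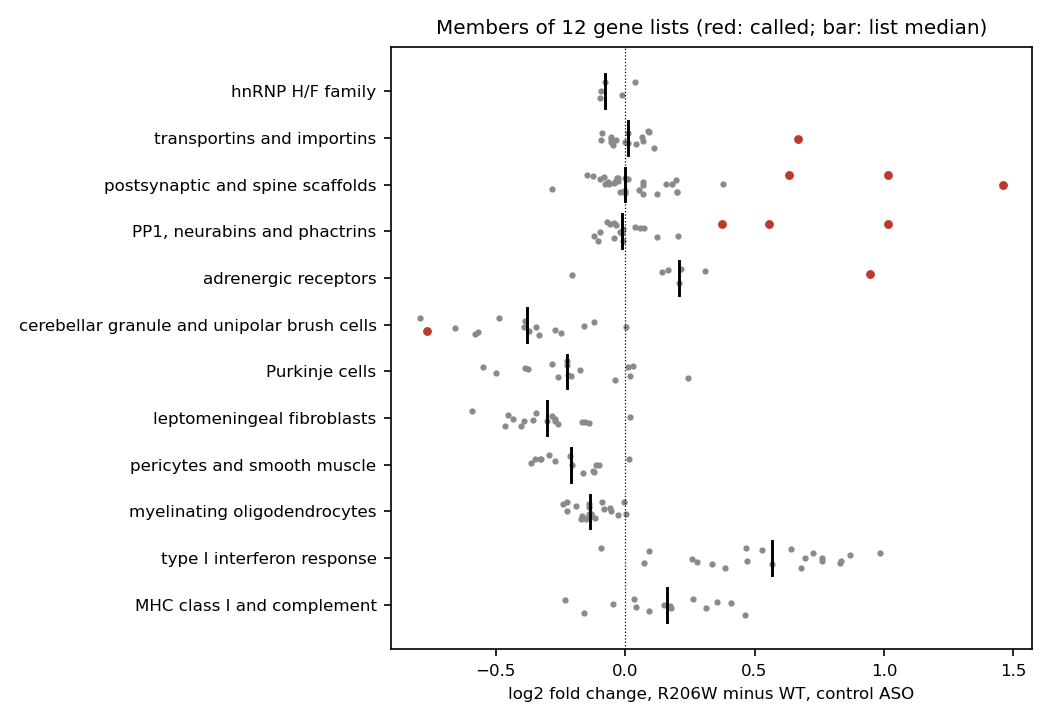
Log2 fold change, R206W minus WT with the control ASO (x axis), of each tested member of 12 gene lists (y axis), with called genes in red and a bar at each list's median. Called members stand apart to the right of their lists' medians, except Cbln3, which lies to the left of the granule cell list's median. The cerebellar and interferon lists lie mostly to 1 side of 0.

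Genes of the brain's coverings and vessel walls were also lower, with none called. Of 17 leptomeningeal fibroblast genes, 16 lay below 0 (51.5% of all genes) and 6 were lower at an unadjusted p under 0.05 (4.25% of all genes), with a median of -0.301. Without R206W replicate 1 the median was -0.179, with 2 genes lower at an unadjusted p under 0.05. Igf2 measured 118, 143.3 and 136 TPM in WT and 84.1, 105.4 and 100.7 TPM in R206W, and Dcn, the proteoglycan decorin, averaged 23.5 and 18.1. The list's summed level overlapped, at 1538 to 1676 TPM in WT and 954 to 1695 TPM in R206W, and Ptgds alone held 1285 of it on average in WT and 1103 in R206W. Of 14 pericyte and smooth muscle genes, 13 lay below 0 and 3 were lower at an unadjusted p under 0.05 (median -0.208, and -0.131 without R206W replicate 3). Their sums did not overlap, with 245.8, 246.8 and 234.8 TPM in WT and 211.9, 201.8 and 185.6 TPM in R206W. Vtn, secreted by pericytes, was at 85.7, 87.6 and 86.1 TPM in WT and 69.9, 71.6 and 69.6 TPM in R206W (adjusted p = 0.174). No gene of these lists was at 0 in all 6 libraries, and their part in the called changes was not tested.

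Interferon-stimulated genes were higher in 1 R206W library above all. Of 21 tested genes of the type I interferon response, 20 lay above 0 (48.3% of all genes) and 7 were higher at an unadjusted p under 0.05 (4.66% of all genes). None was called, and the median was 0.567. Isg15, a ubiquitin-like interferon product, measured 4.97, 5.2 and 4.65 TPM in WT and 4.98, 8.51 and 21.4 TPM in R206W. Oasl2 measured 3.73, 3.22 and 4.3 TPM in WT and 4.18, 7.63 and 17.4 TPM in R206W. In both genes R206W replicate 3 was far above the rest, and replicate 1 was at or near the WT level. The summed level ran from 173.2 to 180.4 TPM in WT and was 158.9, 209.2 and 404.1 TPM in R206W. Without replicate 3 the list's median was 0.219, with 1 gene higher and 1 lower at an unadjusted p under 0.05, and without replicate 1 it was 0.874. Of 14 MHC class I and complement genes, 11 lay above 0 (median 0.162), with 0.012 without replicate 3 and 0.312 without replicate 1. The part of the interferon genes in the called rises was not tested.

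**Figure D4:**
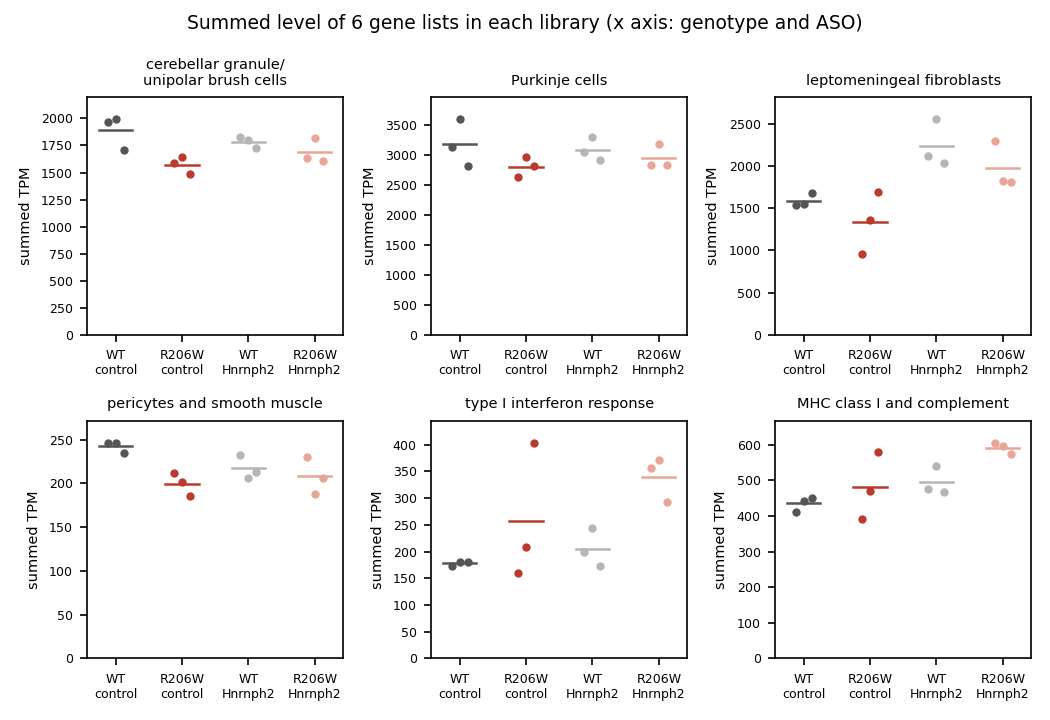
Summed TPM of 6 gene lists (y axis, from 0) in each library of the R206W cohort, by genotype and ASO (x axis), with a line at each group mean and the points in order of replicate number. With the control ASO, R206W lies below WT for granule and for pericyte genes without overlap, and R206W replicate 3 stands at 404.1 TPM for interferon genes.

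Most other gene lists held no called gene. Of 47 lists 39 had none, and 29 medians were below 0. Over all genes, 48.3% lay above 0 and 51.5% below. Myelin genes had 21 of 22 members below 0 with a median of -0.136, and none had an unadjusted p under 0.05. Without R206W replicate 2 that median was -0.032 with 15 below 0, and without R206W replicate 1 it was -0.199 with 7 genes at an unadjusted p under 0.05. Cytosolic ribosomal protein genes had 39 of 43 members above 0 with a median of 0.065, and nuclear-encoded oxidative phosphorylation genes 38 of 47 with a median of 0.039. Single libraries moved both medians, to 0.031 and 0.021 without R206W replicate 3 and to 0.144 and 0.079 without R206W replicate 1, and the ribosomal median was also 0.035 without WT replicate 1, 0.039 without R206W replicate 2 and 0.113 without WT replicate 3. Immediate early genes, which follow neuronal activity, had 22 of 33 above 0 and a median of 0.079, a direction that 1 library turned. Their median was -0.021 with 12 above 0 without R206W replicate 3, 0.264 with 29 above 0 without R206W replicate 2, 0.193 without WT replicate 1, 0.033 without WT replicate 2 and 0.052 without R206W replicate 1. Among splicing regulators, Srrm4, a neuronal microexon factor, averaged 26.4 TPM in WT and 20.5 in R206W (unadjusted p = 0.0088), and 25 of 34 lay below 0 (median -0.041). Of 27 other hnRNP and FET genes, 19 lay below 0 (median -0.070), with Hnrnpc at 165 and 146.7 TPM and Taf15 at 53.2 and 43.1 TPM. The medians of the splicing and of the hnRNP and FET genes were -0.003 and -0.031 without WT replicate 1, -0.089 and -0.126 without WT replicate 3, and -0.007 and -0.033 without R206W replicate 3, and that of the splicing genes was -0.069 without R206W replicate 1.

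Below the threshold, the largest non-overlapping falls named by rule were in Bcl2l15 (-0.83), Gabra6 (-0.79), Crtam (-0.69), Ldoc1 (-0.62), Iltifb (-0.62), Ifitm1 (-0.61), Sebox (-0.60), Etv1 (-0.58) and Eomes (-0.57), beside 3 unnamed models. Sebox was nearest to the threshold (adjusted p = 0.059), with 5.21, 5.64 and 5.42 TPM in WT and 2.67, 3.21 and 3.96 TPM in R206W. Of the 8 largest uncalled rises, 7 were unnamed models, and the eighth was Cort. Cort, which encodes the interneuron peptide cortistatin, measured 16.7, 15.6 and 18.1 TPM in WT and 25.8, 31.1 and 25.1 TPM in R206W (0.67, adjusted p = 0.058).

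The same genotype difference was next read in the mice given the Hnrnph2 ASO, which share no library with the control ASO groups. They share no name stem with them either, so ASO and stem cannot be told apart. Hnrnph2 stood at 23.3 to 26.7 TPM in those WT libraries and at 19.5 to 23.9 TPM in those R206W libraries. There limma called 1 gene (0.00606%), the gene model Gm26493 (adjusted p = 0.0345), and 594 genes had an unadjusted p under 0.05 (3.6%). Gm26493, named after its values were seen, stood at 16.4, 6.65 and 3.44 TPM in WT and was listed at 0 in the 3 R206W libraries, and it was also listed at 0 in all 6 control ASO libraries. None of the 21 rises was called with the Hnrnph2 ASO. At an unadjusted p under 0.05 in limma, 2 of them were higher (2.29% of all genes). In 10 of them all R206W values lay above all WT values, a share not computed over all genes for this ASO. All 21 were above 0, as were 59.1% of all genes, and their log2 fold changes ran from 0.0044 to 0.21 with a median of 0.096, against 0.019 over all genes. Ddn averaged 224.1 ± 14.3 TPM in WT and 258.8 ± 8.36 TPM in R206W with the Hnrnph2 ASO (SD, n = 3; 0.21, unadjusted p = 0.054). Ppp1r9b averaged 258.3 ± 8.45 and 281.9 ± 3.99 TPM, and Tnpo2 57.3 ± 0.262 and 61.5 ± 1.97 TPM.

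The difference between the ASOs was itself tested. The R206W effect was larger with the control ASO than with the Hnrnph2 ASO in all 21 rising genes, a direction partly set by their choice in the control ASO groups. Of 16489 genes, 3 passed the test of the difference (0.0182%), namely Ddn (1.25, SE 0.14, adjusted p = 0.0213), Tnpo2 (0.57, SE 0.069, adjusted p = 0.0287) and Ppp1r9b (0.89, SE 0.11, adjusted p = 0.0339). The other 18 rising genes did not pass it, with Inpp5f nearest (0.38, adjusted p = 0.267). These 3 calls rested on few libraries. The call of Ddn was lost without WT control replicate 3, without WT Hnrnph2 ASO replicate 1 or 3 and without R206W Hnrnph2 ASO replicate 2 or 3 (adjusted p up to 0.121). That of Tnpo2 was lost without any of these and without WT control replicate 2, R206W control replicate 1 or WT Hnrnph2 ASO replicate 2 (up to 0.135). That of Ppp1r9b was kept with any 1 of the 3 R206W control libraries left out and lost without each of the other 9 (up to 0.156). None of the 3 passed without a variance trend, Ppp1r9b did not pass under 3 further settings, and Tnpo2 did not with the name stem as a block (adjusted p = 0.0623).

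The cerebellar and interferon genes were read in the same way. Cbln3 was also lower in R206W with the Hnrnph2 ASO, with 129.2 ± 4.81 TPM in WT and 89.5 ± 10.9 TPM in R206W (log2 fold change -0.53, unadjusted p = 0.00099), and the test of the difference between the ASOs did not pass (adjusted p = 1). The granule list's median was -0.14 there, and 14 of 16 members lay below 0, as did 40.7% of all genes. The granule sums overlapped, with 1825, 1805 and 1727 TPM in WT and 1638, 1820 and 1605 TPM in R206W. Interferon genes had a median of 0.765 with the Hnrnph2 ASO, with summed levels of 198.9, 243.4 and 172.7 TPM in WT and 355.5, 372 and 292.6 TPM in R206W. These sums did not overlap, and 16 of 21 genes were higher at an unadjusted p under 0.05 (2.29% of all genes).

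The P209L cohorts, which also share no library with the 6 described, measured the same 21 genes in other mice. At 3 weeks, all 21 were above 0 in P209L against its own WT (48.3% of all genes), 20 had an unadjusted p under 0.05 (4.09%) and 11 were called (0.133%). The 11 were 52.4% of the R206W rises and 50% of the 22 genes called higher in P209L. At 8 weeks all 21 were above 0 (59.9%), 19 had an unadjusted p under 0.05 (4.19%) and 12 were called (0.163%), which was 57.1% of the R206W rises and 44.4% of the 27 called higher there. Their median log2 fold change was 0.50 in R206W, 0.62 in P209L at 3 weeks and 0.55 in P209L at 8 weeks.

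**Figure D5:**
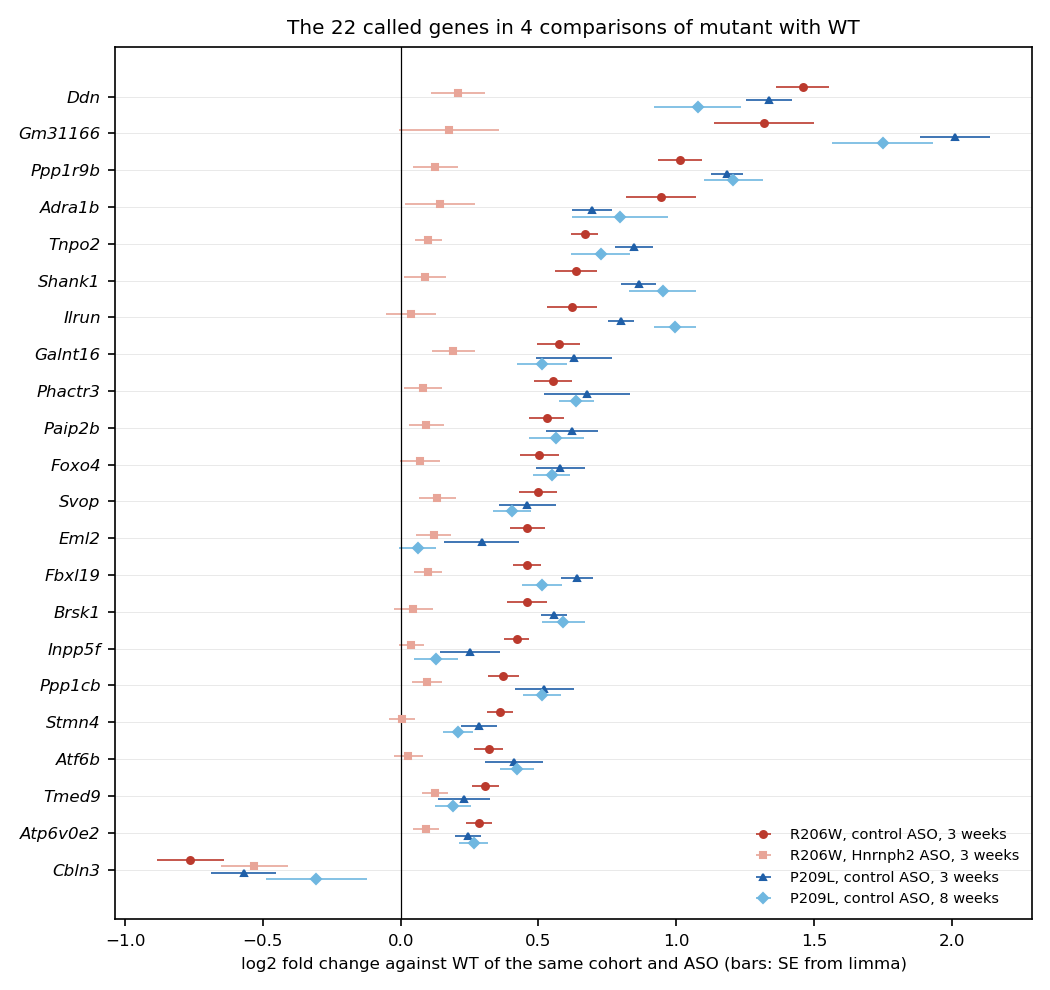
Log2 fold change of mutant against WT of the same cohort and ASO (x axis, bars showing limma's SE) for the 22 called genes (y axis) in R206W with each ASO and in P209L with the control ASO at both ages. The pale squares of R206W with the Hnrnph2 ASO lie between 0 and 0.21 for the 21 rising genes, to the left of the red circles of the control ASO.

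The estimates for single genes are given here for each mutant. Ddn changed by 1.46 in R206W, 1.34 in P209L at 3 weeks and 1.08 in P209L at 8 weeks, and Ppp1r9b by 1.01, 1.19 and 1.21. Tnpo2 changed by 0.67, 0.85 and 0.73. These 3 genes were called in each of the 3 mutant comparisons. Ilrun had 0.62, 0.80 and 1.00, and Gm31166 1.32, 2.01 and 1.75. Eml2 had 0.46, 0.29 and 0.062, and Inpp5f 0.42, 0.25 and 0.13. Svop, Galnt16, Eml2, Inpp5f, Stmn4, Tmed9 and Atp6v0e2 were the 7 called in R206W and in neither P209L cohort. A call in 1 comparison and not in another is not a tested difference.

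Tests of the difference between the mutations found no gene past the threshold. The R206W effect minus the P209L effect at 3 weeks gave 0 called genes in limma over 16556 genes (0%) and 392 at an unadjusted p under 0.05 (2.37%). Against P209L at 8 weeks there were 0 (0%) and 552 (3.33%), in a comparison where mutation and age differ together. Of the 22 called genes, 2 had an unadjusted p under 0.05 in the first, Gm31166 (-0.70, unadjusted p = 0.0091) and Fbxl19 (-0.18, unadjusted p = 0.031). In the second there were 6, with Ilrun lower in R206W (-0.37, unadjusted p = 0.0015) and Eml2 higher (0.40, unadjusted p = 0.0087), beside Inpp5f (0.29), Shank1 (-0.32), Ddn (0.38) and Cbln3 (-0.46). A p that misses the threshold does not show that the mutations act alike.

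Gene groups below the threshold stood as follows in the 3 mutant comparisons, in the order R206W, P209L at 3 weeks and P209L at 8 weeks. The medians were -0.38, -0.143 and -0.095 for granule and unipolar brush cells, and 0.567, 0.208 and -0.048 for the interferon response. Myelin genes had -0.136, -0.23 and -0.185, with values on the same side of 0 in all 3 (-0.032 in R206W without its replicate 2). Immediate early genes had 0.079 (-0.021 without R206W replicate 3), -0.328 and -0.55, and 4 of their 33 members had an unadjusted p under 0.05 for R206W minus P209L at 3 weeks. None of the genes of these lists passed that test after adjustment.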

How the data were processed

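RNA of male mouse brain was measured by sequencing of stranded total-RNA libraries, per the labels' protocols. The authors deposited 1 table of TPM for 35 libraries, made, per the submitters' processing notes, with RSEM, STAR 2.7.1a, Trim Galore and GATK 4.0.4.0 on the build mm10. The annotation, filters and strand setting are not given in the sources used here. TPM keeps no depth, so counting error is unknown and count models were not used. Coordinates come from a RefSeq table of the same build.

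Groups came from the titles. The WT libraries at 3 weeks were placed in the R206W cohort by library number. A gene needed a mean of 1 TPM or more. The test was limma (version 3.58.1, R 4.3.3) applied to log2(TPM + 1) (eBayes with a trend, two-sided, Benjamini-Hochberg adjustment over all genes tested, called at an adjusted p under 0.05). The fit held the 12 libraries of the cohort, with 1 mean for each of 4 groups. Differences from P209L came from a fit of all 35 libraries, and each P209L effect from its own cohort. A fold change on this scale understates the change of low genes. Hnrnph2 and its relatives were also compared in TPM by exact permutation tests.

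Members, gene lists and tests were chosen with earlier results of these data known. By rule, up to 20 called rises and 20 falls were named, with the hnRNP H/F family, the largest non-overlapping uncalled changes (unadjusted p under 0.01, mean of at least 3 TPM) and list members of smallest p. Atp6v0e2, the smallest of 21 rises, and gene relatives with larger p fall outside it and were named after their values were seen. Alternatives changed the filter, pseudocount, scaling, variance model, blocks, covariate and libraries.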

Additional observations from a re-analysis of the deposited data

Results flagged for a closer look

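A total of 3 genes differed between the ASO groups in the size of their R206W effect by a test of the difference itself. The name stems of the libraries differ between these groups too, so ASO and stem cannot be told apart. The effect with the control ASO minus that with the Hnrnph2 ASO was 1.25 on the log2 scale for Ddn (adjusted p = 0.0213), 0.89 for Ppp1r9b (adjusted p = 0.0339) and 0.57 for Tnpo2 (adjusted p = 0.0287), all from limma. With each of the 12 libraries left out in turn, the difference ran from 1.13 to 1.32 for Ddn, from 0.77 to 0.95 for Ppp1r9b and from 0.54 to 0.59 for Tnpo2. It kept its direction in every one of these fits, while the adjusted p rose to 0.121 for Ddn, 0.156 for Ppp1r9b and 0.135 for Tnpo2. Without a variance trend none of the 3 passed (adjusted p = 0.0728 for Ddn and 0.116 for both others). Ppp1r9b also failed with median-of-ratios scaling (adjusted p = 0.0679), without a filter (0.131) and with the replicate block (0.0961), and Tnpo2 with the name stem as a block (0.0623).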

How the results depend on the processing

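The 21 rises stayed above 0 under all 20 alternatives to the mutation effect (20 of them testable with a mean of at least 5 TPM). Because the groups of these genes do not overlap, only a change of scaling or the covariate could have turned a sign. Ddn and Tnpo2 stayed called under each alternative. The count of 22 calls (21 higher, 1 lower) was 13 (13 and 0) without a variance trend, 2 (2 and 0) with the cerebellar covariate or with only the 6 libraries, and 48 (38 and 10) with all 35. Of the 21 rises, 13 stayed called without a trend, 14 with the name stem as a block, 15 without a filter or with median-of-ratios scaling, and 17 with scaling that left out mitochondrial and abundant genes. Cbln3 was the 1 called lower, against 2 with a pseudocount of 5 and 0 with median-of-ratios scaling. Leaving out 1 library gave 10 to 25 calls, 9 to 23 higher and 0 to 8 lower. The cause of these shifts was not tested. With replicate number as a block, a replicate block fit called 210 genes, 102 higher and 108 lower, with all 21 rises among them. Deviations of same-numbered libraries correlated at 0.081, 0.005 and 0.121, not all over 0.1, so the fit used here did not pair them. Some traits of the libraries did follow the number. In all 4 groups of the cohort Pcp2 was highest in replicate 2, and replicate 3 had the fewest genes at 1 TPM. Whether the numbers pair the libraries was not settled. WT replicates 1 and 3 correlated best with the R206W library of their number, and WT replicate 2 with R206W replicate 1.

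With the Hnrnph2 ASO the 1 call became 2 without a filter, 5 with only the compared groups, 0 with a mean of at least 5 TPM, a pseudocount of 5, no trend, the replicate block or the name stem as a block, and 0 to 2 with 1 library left out. The 3 genes that differed between the ASOs became 0 without a trend and 0 to 6 with 1 library left out. Differences from P209L at 3 weeks became 2 without a filter and 0 to 1 with 1 library left out. Those from P209L at 8 weeks became 1 without a filter, 2 with only 4 groups and 0 to 1 with 1 library left out. The Hnrnph2 difference ran from -5.31 to 5.87 TPM with 1 library left out, and its log2 fold change from -0.070 (without WT replicate 3) to 0.082 (without WT replicate 1), with 0.039 without R206W replicate 2. That of Grsf1 ran from -0.020 (without WT replicate 2) to 0.090.

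Under the cerebellar covariate 14 of the 138 genes followed over the settings, none of them called, changed sign: Hnrnph1 to 0.026, Hnrnph3 to 0.21, Hnrnpf to 0.0056, Grsf1 to -0.11, Hnrnph2 to 0.13, Taf15 to 0.020, Srrm3 to 0.086, Homer3 to 0.12, Grin2c to 0.083, Gabra3 to -0.072, Fat2 to 0.027, Rgs8 to 0.075, Arhgef33 to 0.16 and Pmch to -0.095. The covariate is made of cerebellar genes, so changes of sign among such genes are partly built in. Members below 0 under it went from 25 to 7 of 34 splicing regulators and from 19 to 7 of 27 other hnRNP and FET genes. Among 12 CXXC genes they went from 10 to 2. With 1 library left out, medians ran from -0.033 to 0.064 for scaffolds, -0.033 to 0.044 for the phosphatase list, -0.036 to 0.066 for importins, -0.015 to 0.059 for exportins, -0.137 to -0.033 for the hnRNP H/F family and -0.124 to -0.033 for CXXC genes. Depth is unknown, so how far it limits low genes such as Gm31166 was not assessed.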

Other observations

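Interneuron genes held values in both directions. Beside Cort, Sst, which encodes somatostatin, measured 337.7, 294.1 and 349.8 TPM in WT and 381.9, 377.9 and 409.2 TPM in R206W (log2 fold change 0.25, adjusted p = 0.375). Slc32a1, the vesicular transporter of GABA, averaged 111.6 TPM in WT and 135 in R206W. Nos1 averaged 22.7 and 16.6 TPM, and Calb2, which encodes calretinin and is also abundant in cerebellar granule cells, 319.4 and 257. Of 23 interneuron rows 12 lay below 0, with a median of -0.009 (-0.09 without WT replicate 2 and 0.047 without WT replicate 3), and none was called.

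Aqp4, the water channel of astrocyte endfeet, measured 88.1, 90.1 and 76.6 TPM in WT and 64.8, 64.7 and 48.3 TPM in R206W, without overlap (-0.52, adjusted p = 0.183). The 19 astrocyte genes had a median of -0.029, and -0.053 to 0.002 with 1 library left out. Ppm1a, a phosphatase of the PP2C family, measured 145.2, 124.7 and 143.6 TPM in WT and 194.3, 171.4 and 226.9 TPM in R206W (0.51, adjusted p = 0.108). Of 18 heat shock genes, 17 lay below 0 with a median of -0.132 (-0.082 without R206W replicate 3), and Cryab averaged 192.5 TPM in WT and 152.9 in R206W. Dzip1, a gene of the primary cilium, averaged 52.2 and 68.2 TPM (0.38, adjusted p = 0.225). In the P209L cohorts its log2 fold change was 0.78 at 3 weeks and 0.72 at 8 weeks, with adjusted p = 0.0313 and 0.0259. Ppfia3, which encodes a liprin of the presynaptic active zone, had 0.36 in R206W (adjusted p = 0.231), 0.69 in P209L at 3 weeks and 0.75 in P209L at 8 weeks (adjusted p = 0.00093 and 0.0335).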
